A study of Mus musculus with 6 samples.

Results

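The genes described here carry bicarbonate and acid across kidney epithelia or mark the intercalated cells of the collecting duct. They are Foxi1, Slc26a4, Slc4a9, Slc4a1, Atp6v1b1, Slc9a3, Slc4a4, Car4, Car2 and Car12, named by symbol, and they are 10 of the 21154 genes that array probes could be matched to. RNA from whole kidneys was measured in 3 mice labelled iNampt-conditional knockout and in 3 labelled Control, all male C57BL/6J, with 1 single-colour Agilent array per animal. Nampt is the gene of an enzyme that limits the rate at which cells remake NAD from nicotinamide, and the series title places its role in the proximal tubules. The age of the mice, the Cre driver, the deleted exons and the alleles carried by the controls are not given in the sources used here, and no label mentions diabetes although the title does. The 10 genes were read by 15 probes, and all 15 were well above background on all 6 arrays. Levels below are log2 signals scaled to each array's 75th percentile, and they compare arrays for 1 probe and not genes with each other.

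The proximal tubule reclaims most filtered bicarbonate. Its apical sodium/proton exchanger secretes acid into the lumen, membrane-bound and cytosolic carbonic anhydrases interconvert bicarbonate and carbon dioxide, and a basolateral cotransporter returns bicarbonate to the blood. Downstream, type A intercalated cells of the collecting duct secrete acid through an apical proton pump and return bicarbonate through a basolateral chloride/bicarbonate exchanger, while type B cells secrete bicarbonate through pendrin at the apical membrane. The forkhead transcription factor Foxi1 is required for intercalated cells to form.

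None of the 10 genes passed an adjusted p of 0.05 in limma's fit over 15307 genes, a threshold that 0.170% of all genes tested passed. At an unadjusted p under 0.05 there were 2 of the 10, Slc26a4 and Foxi1, against 12.8% of all genes. The same 2 genes, or 20% of the 10, had knockout and control arrays that did not overlap, which is near the 19.5% of all genes tested. Slc26a4 lay lower and Foxi1 higher in the knockouts. The other 8 overlapped, and the 95% intervals of the probe that stood for each stayed within 1.35-fold in either direction. A dimmer probe of Slc9a3 had a wider interval, from -0.48 to 0.32 (log2). The median difference of the 10 was -0.06 (log2, knockout minus control), against -0.01 over all genes tested. By array, the median of the 10 relative to the control mean was 0.01, -0.08 and -0.09 in knockouts 1, 2 and 3. It was -0.05, -0.02 and 0.12 in controls 1, 2 and 3, so control 3 was the highest and controls 1 and 2 lay among the knockouts. Nampt itself was at 1.804, 1.502 and 1.531 in the knockouts, against 2.775, 2.591 and 2.646 in the controls, a difference of -1.06 ± 0.10 (SE; adjusted p = 0.0430). Its difference ran from -1.15 to -0.87 over 17 other settings and passed in 9 of them (adjusted p from 0.00879 to 0.180); it did not pass with quantile normalisation, with either block, or without any 1 array other than knockout 1. The RNA is from whole kidney, so fewer cells of a type and less RNA per cell cannot be told apart.

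**Figure D1:**
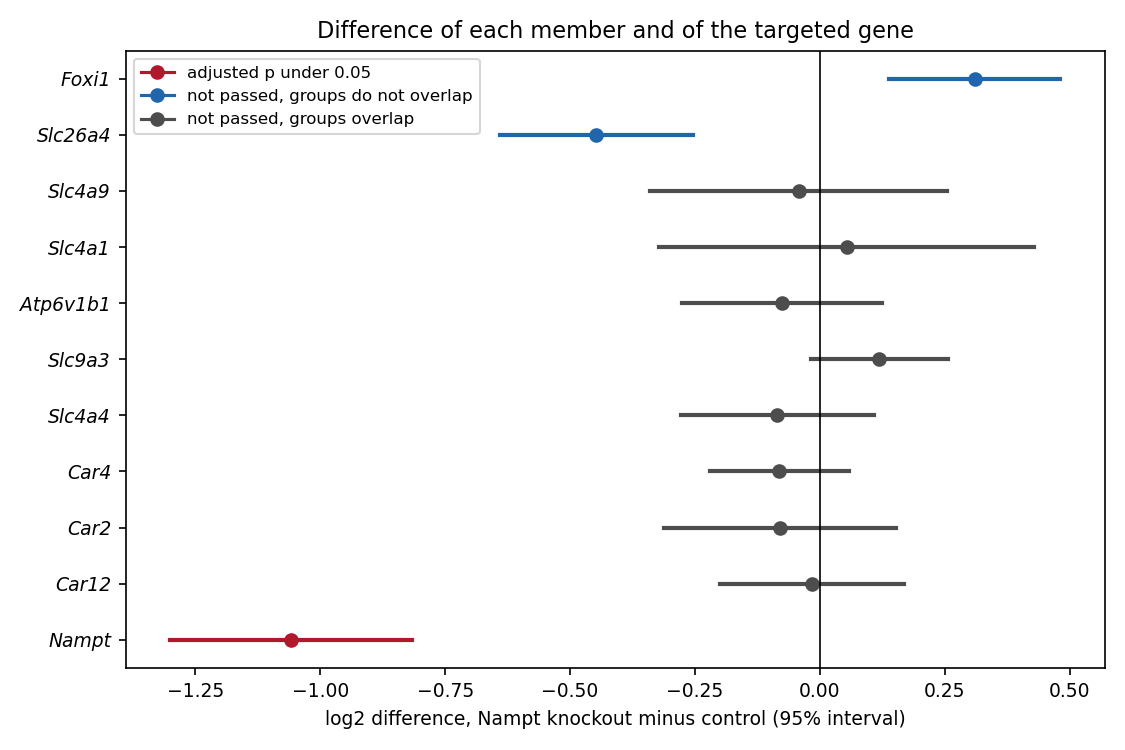
Log2 difference, Nampt knockout minus control, for each of the 10 genes and for Nampt (points), with its 95% interval from the limma fit (lines). Slc26a4 and Foxi1 are the 2 members whose intervals leave out 0, and Nampt is the gene that passed the adjusted threshold.

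Foxi1, the intercalated cell transcription factor, was at 3.24, 3.31 and 3.24 in knockouts 1, 2 and 3, against 2.86, 2.93 and 3.08 in controls 1, 2 and 3. The 3 knockouts lay close together and all were above the highest control. The difference was 0.31 ± 0.07 (log2, SE), or 1.24-fold with a 95% interval of 1.101 to 1.396 (limma adjusted p = 0.205; exact two-sided permutation p = 0.1, the smallest that 3 animals against 3 allow). Over 18 other settings the difference ran from 0.26 to 0.37 and the adjusted p from 0.0813 to 0.478. Knockout 1 shared the first row of the slide with the controls, and the second row held only knockouts 2 and 3. A fit with slide row as a block therefore compares knockout 1 alone with the 3 controls and is no adjustment over all arrays. For Foxi1 that difference was 0.28.

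Slc26a4, which encodes the bicarbonate-secreting exchanger pendrin, was at 3.89, 3.91 and 3.77 in the knockouts, against 4.25, 4.21 and 4.44 in the controls. All 3 knockouts were below the lowest control, the opposite order to Foxi1. Pendrin's transcript differed by -0.45 ± 0.08 (log2, SE), or 0.733-fold with a 95% interval of 0.641 to 0.838 (limma adjusted p = 0.138; exact two-sided permutation p = 0.1). Over 17 other settings it ran from -0.49 to -0.38, with adjusted p from 0.0630 to 0.379. Knockout 1 alone against the 3 controls, all in the first slide row, differed by -0.41.

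The promoters of these 2 genes are shown because their transcripts separated the groups, and that of Atp6v1b1, the intercalated cell proton pump subunit, because it holds the forkhead core letters. The sequences are RefSeq's (GRCm38.p6), 250 bases before the annotated start, 5′ to 3′ on the gene's strand, with capitals for matches on either strand to TGTTTA, to the longer TGTTTAC that contains it, or to TATAAA. Slc26a4 lies at chr12:31559985-31560234 on the minus strand, Foxi1 at chr11:34208090-34208339 on the minus strand and Atp6v1b1 at chr6:83742767-83743016 on the plus strand.
Slc26a4: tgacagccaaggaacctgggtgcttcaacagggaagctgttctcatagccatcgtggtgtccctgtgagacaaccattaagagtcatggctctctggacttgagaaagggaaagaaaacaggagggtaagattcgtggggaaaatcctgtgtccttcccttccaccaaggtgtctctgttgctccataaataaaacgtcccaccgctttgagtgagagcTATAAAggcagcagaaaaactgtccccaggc
Foxi1: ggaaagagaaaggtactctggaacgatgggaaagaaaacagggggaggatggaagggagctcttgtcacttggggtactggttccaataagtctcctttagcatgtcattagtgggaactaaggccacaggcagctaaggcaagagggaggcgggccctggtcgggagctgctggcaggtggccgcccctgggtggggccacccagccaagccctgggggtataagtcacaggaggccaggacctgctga
Atp6v1b1: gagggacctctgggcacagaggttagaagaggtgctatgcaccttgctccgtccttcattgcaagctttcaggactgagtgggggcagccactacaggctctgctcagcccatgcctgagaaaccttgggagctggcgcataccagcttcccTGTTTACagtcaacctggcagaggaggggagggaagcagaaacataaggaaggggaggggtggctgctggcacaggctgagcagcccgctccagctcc

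The TATAAA of Slc26a4 begins 31 bases before the start, and the TGTTTAC of Atp6v1b1 begins 98 bases before it. The table held 8 windows for 7 of the 10 genes; Slc4a1, Slc4a9 and Car2 had no entry. TGTTTA was found for Atp6v1b1 and, 11 bases before the start, for Car12. It was in 3952 of all 32851 windows of the same length, TGTTTAC was in 3.17% and TATAAA was in 12.4%. Among 23 windows of 17 other intercalated cell markers, TGTTTA was in 1, that of P2ry14. The windows without a match say only that these letters are not there.

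Slc26a4 shares chromosome 12 with Nampt in the RefSeq table, with 23 genes listed between them. Of the 26 genes called over the whole array, 8 are on that chromosome, Nampt among them. That is 8 of the 526 genes tested there, against 26 of 15307 over all genes. Groups did not overlap in 27.6% of the 526, against 19.5% of all genes tested. By size of difference in either direction, Slc26a4 ranked 48 among the 526. The 7 genes tested that lie between Slc26a4 and Nampt had a median difference of 0.09 and a range from -0.08 to 0.22, and none of them passed. On the far side of Slc26a4, its nearest tested neighbour Cbll1 was at -0.05 ± 0.07 and the next, Dld, at -0.04 ± 0.06. Of the 19 genes plotted, 5 had groups that did not overlap. Slc26a4 and Nampt had all knockouts below all controls, and Fam110c (0.18 ± 0.07), Hbp1 (0.11 ± 0.05) and Gdap10 (0.25 ± 0.10), which lies next to Nampt, had all knockouts above all controls. The part of the shared chromosome in the pendrin difference was not tested.

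**Figure D2:**
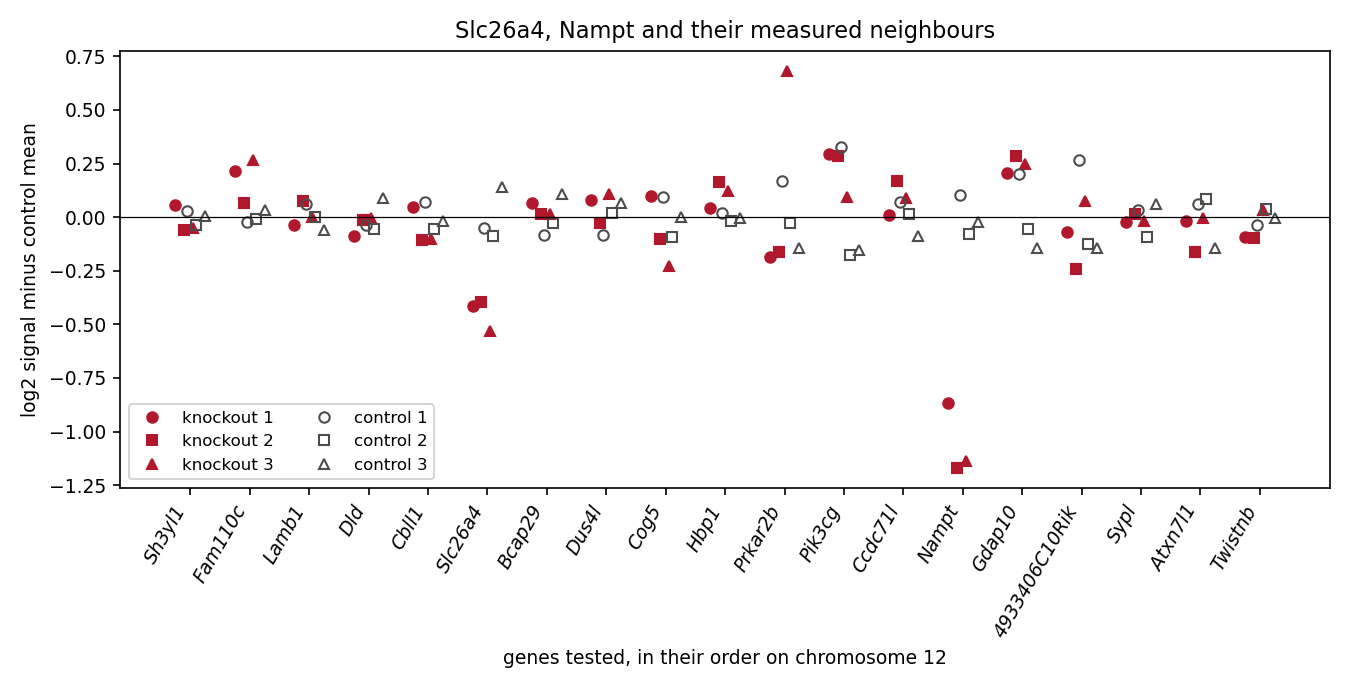
Log2 signal of each array minus the control mean (vertical axis) for Slc26a4, Nampt, the 7 tested genes between them and 5 tested genes on either side, in chromosome order with equal spacing. Filled symbols are knockouts and open symbols controls; Slc26a4 and Nampt are the 2 genes with all knockouts below all controls.

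Slc4a9, the AE4 anion exchanger of type B intercalated cells, was at 2.49, 2.18 and 2.17 in the knockouts, against 2.17, 2.33 and 2.48 in the controls. The groups covered the same range. The difference was -0.04 ± 0.12 (limma adjusted p = 0.915), with a 95% interval from -0.34 to 0.25. Its other probe was at -0.05 ± 0.05 in a fit over probes. Pendrin and AE4, both of type B cells, therefore gave different values in the same kidneys, but the difference between the 2 genes was not tested.

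Slc4a1 encodes AE1, the basolateral exchanger of type A intercalated cells, which is also band 3 of red cells. It was at 2.43, 1.91 and 2.08 in the knockouts, against 2.09, 2.25 and 1.91 in the controls. Knockout 1 was the highest and knockout 2 the lowest of the 6 arrays. The difference was 0.05 ± 0.15 (adjusted p = 0.915), with a 95% interval from -0.32 to 0.43, the widest among the 10 genes. With slide row as a block, which sets knockout 1 alone against the controls, it was 0.34, and without knockout 1 it was -0.09.

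Red cell markers varied among the same arrays. Of 13 erythroid markers on the array, 9 were tested, and their summed linear signal, relative to the array's 75th percentile, came to 618, 352 and 319 in knockouts 1, 2 and 3, against 703, 619 and 560 in controls 1, 2 and 3. The others did not pass the filter on dim probes. Hbb-b1, the beta-globin gene, was at -0.76 ± 0.22 (adjusted p = 0.268); it was at -0.27 with slide row as a block, and at -1.01 without knockout 1, where it passed (adjusted p = 0.0475). Epb42, which encodes the band 3 partner protein 4.2, was at 0.69 ± 0.44 and dim, with knockout 2 not above background, and at 0.17 without knockout 3. The part of red cells in the Slc4a1 values was not tested.

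Atp6v1b1, which encodes the B1 subunit of the intercalated cell proton pump, was at 0.69, 0.48 and 0.42 in the knockouts, against 0.60, 0.56 and 0.66 in the controls. Knockout 1 lay above every control and knockouts 2 and 3 below them. The difference was -0.08 ± 0.08 (adjusted p = 0.762), with a 95% interval from -0.28 to 0.13, and its sign turned with slide row as a block (0.09).

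**Figure D3:**
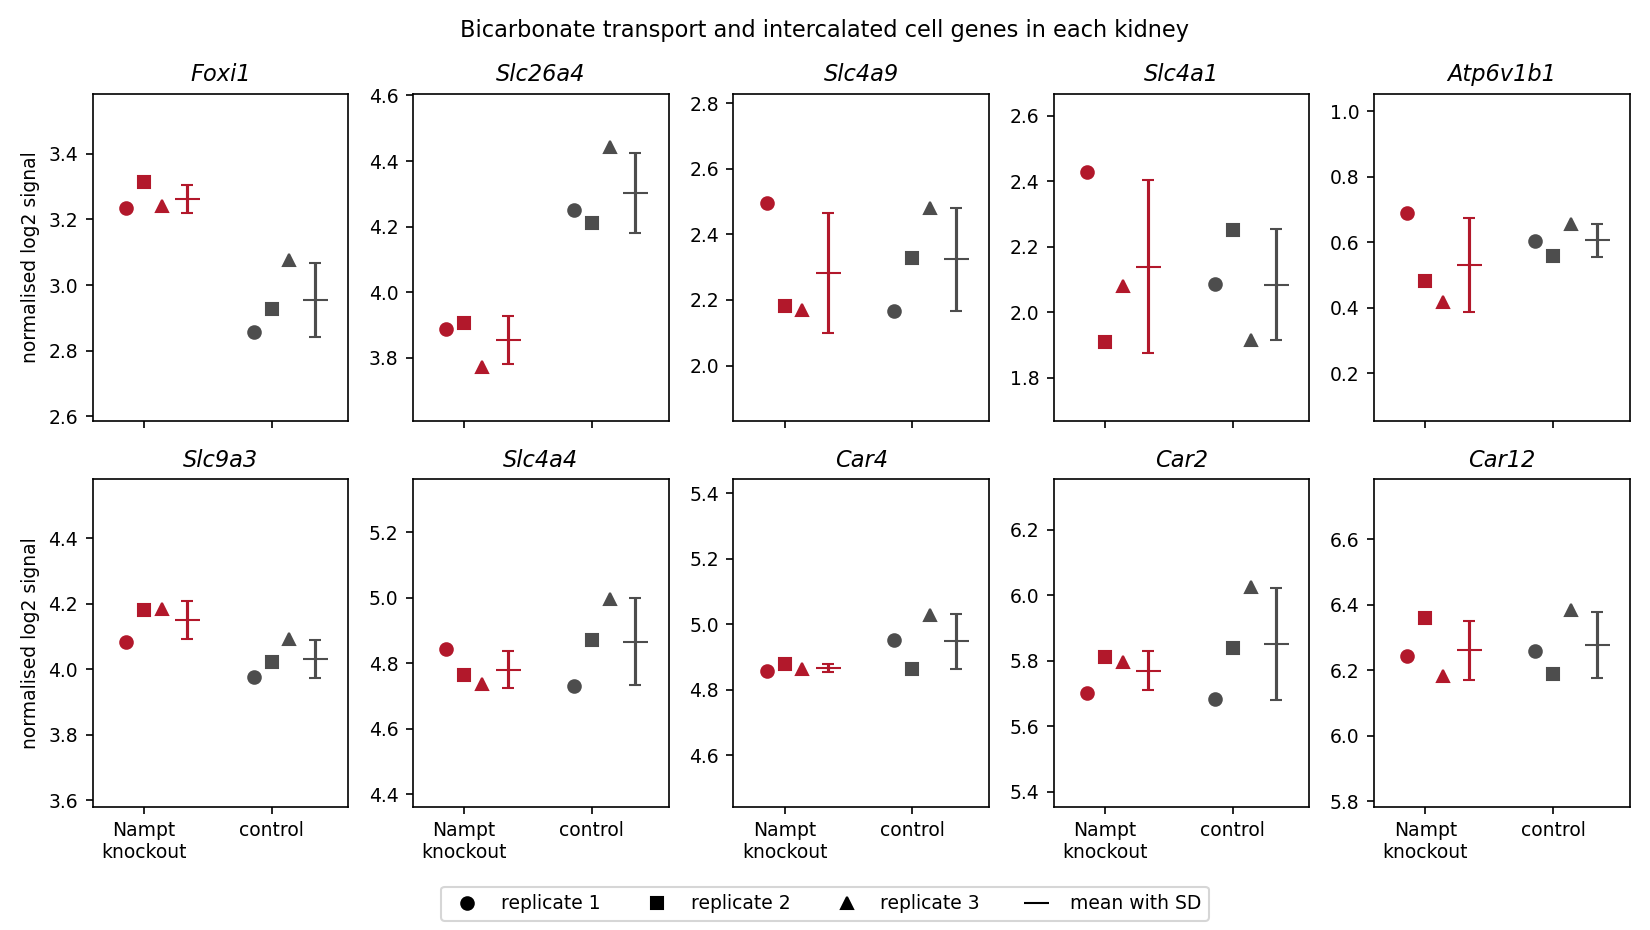
Normalised log2 signal (vertical axis, 1 log2 unit in every panel) of the 10 genes in each kidney, knockouts left and controls right; symbols give the replicate number and bars the mean with SD. Foxi1 and Slc26a4 are the 2 panels in which the groups do not overlap, and Slc4a9, Slc4a1 and Atp6v1b1 have knockout 1 above the other knockouts.

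A further 22 intercalated cell markers, all tested, had a median difference of -0.04, and none passed over all genes; 15 were negative and 7 positive. The groups did not overlap in 3 of the 22, against 19.5% of all genes. The pump subunit gene Atp6v1g3 was at -0.28 ± 0.06 (adjusted p = 0.205) and the subunit gene Atp6v0d2 at -0.18 ± 0.08. The transcription factor genes Tfcp2l1 and Dmrt2 were at -0.02 ± 0.06 and 0.21 ± 0.16, the second at 0.05 without knockout 3. The type A channel gene Aqp6 was at 0.05 ± 0.15, the alkali-sensing receptor gene Insrr at -0.07 ± 0.07 and the ammonia channel gene Rhcg at -0.03 ± 0.09. The 6 type A markers had a median of -0.01 and the 4 type B markers one of 0.12. The list ran from -0.30 to 0.49, so Foxi1 lay within its range and Slc26a4 below it. The highest value, 0.49, was that of a type B marker. Of the 4 type B markers, 2 were positive and 2 negative, and 1 had all knockouts above all controls, the opposite order to Slc26a4.

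Among the knockouts, the first animal had more signal from these markers. Knockout 1 was the highest knockout in 18 of the 22, or 81.8%, against 33.4% of all genes tested. It was also the highest in 3 of the 5 intercalated cell genes among the 10, Slc4a9, Slc4a1 and Atp6v1b1. Foxi1 was lowest in knockout 1, and Slc26a4 was highest in knockout 2. The share was 66.7% of erythroid markers and 61.5% of the ammonia and acid-base list, which shares Rhcg, Rhbg, Insrr and Oxgr1 with the 22. It was 50% of endothelial markers and 50% of markers of the thick ascending limb and distal convoluted tubule. Macrophage markers had 28.6%, proximal tubule markers 21.4%, and principal cell, injury and adipocyte markers 0%. The median of the 22, relative to the control mean, stood at 0.06, -0.08 and -0.11 in knockouts 1, 2 and 3. In controls 1, 2 and 3 it was 0.02, -0.01 and 0.001. Knockout 1 is also the knockout in the first slide row and the one with erythroid signal in the control range. It also had the highest Nampt of the knockouts (1.804, against 1.502 and 1.531 in knockouts 2 and 3), the lowest summed injury signal (4.37, against 7.84 and 7.04) and the largest share of spots above background (61.5%, against 58.1% and 57.3%). The part of any of these was not tested. This pattern was noticed in the data and has no test.

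**Figure D4:**
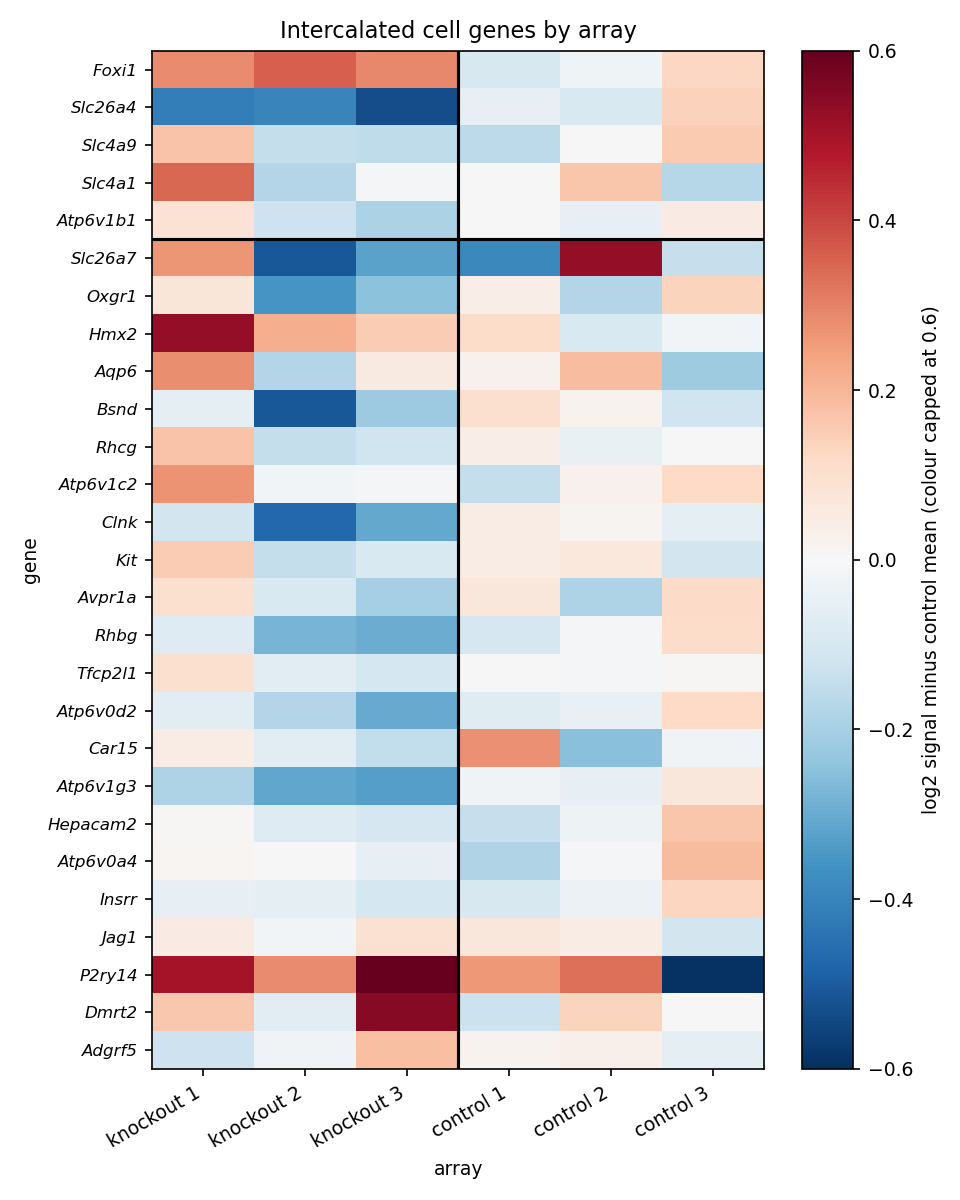
Log2 signal minus the control mean (colour) of the 5 intercalated cell genes among the 10 (above the line) and of 22 further markers (below it) on each array, knockouts left. In 18 of the 22 further rows knockout 1 is the highest of the 3 knockouts; Foxi1 is red and Slc26a4 blue in all 3 knockouts.

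Slc9a3, which encodes NHE3, the apical sodium/proton exchanger of the proximal tubule, was at 4.08, 4.18 and 4.18 in the knockouts, against 3.98, 4.02 and 4.09 in the controls. Knockouts 2 and 3 lay above every control, and knockout 1 fell just under control 3. The difference was 0.12 ± 0.06 (adjusted p = 0.451), with a 95% interval from -0.02 to 0.26. The other probe of Slc9a3, which carries the curated RefSeq transcript where the first carries a predicted one, was at -0.08 ± 0.16 in the fit over probes. That probe was far dimmer, at -3.62 to -3.06 over the arrays, and its SE was larger. The sign thus differed between a bright and a dim probe, and the mean of both probes differed by 0.02.

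Slc4a4 encodes NBCe1, the basolateral sodium bicarbonate cotransporter that takes reclaimed bicarbonate to the blood. It was at 4.84, 4.76 and 4.74 in the knockouts, against 4.73, 4.87 and 4.995 in the controls. The knockouts lay within the span of the controls. The difference was -0.09 ± 0.08 (adjusted p = 0.714; 95% interval from -0.28 to 0.11), and its other 2 probes were at -0.05 ± 0.10 and -0.01 ± 0.09.

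Car4, the membrane-anchored carbonic anhydrase of the tubule lumen, was at 4.86, 4.88 and 4.86 in the knockouts, against 4.95, 4.86 and 5.03 in the controls. The knockouts differed little among themselves and control 2 lay among them. The difference was -0.08 ± 0.06 (adjusted p = 0.623), with a 95% interval from -0.22 to 0.06, and the other probe gave -0.13 ± 0.08. Endothelial cells can also express Car4, and the 8 endothelial markers tested had a median difference of 0.003.

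Car2, the cytosolic carbonic anhydrase of proximal tubule and intercalated cells, was at 5.70, 5.81 and 5.80 in the knockouts, against 5.68, 5.84 and 6.03 in the controls. The difference of -0.08 ± 0.09 (adjusted p = 0.787; 95% interval from -0.31 to 0.15) turned to 0.0082 without control 3, the highest array. Car12, a transmembrane carbonic anhydrase, was at 6.24, 6.36 and 6.18 in the knockouts, against 6.26, 6.19 and 6.38 in the controls. Its groups overlapped fully, with a difference of -0.02 ± 0.08 (adjusted p = 0.952; 95% interval from -0.20 to 0.17).

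The relatives of these genes gave no call either. In the SLC4 family, 0 of 6 genes tested passed at either p threshold; the anion exchanger gene Slc4a2 was at -0.01 ± 0.06, the cotransporter gene Slc4a7 at 0.12 ± 0.10, Slc4a8 at 0.15 ± 0.09 and Slc4a3 at -0.05 ± 0.06. In the SLC26 family, 0 of 6 passed over all genes and 1 at an unadjusted p under 0.05, against 12.8% of all genes. That gene was Slc26a6, an apical anion exchanger of the proximal tubule, at 0.29 ± 0.11 (adjusted p = 0.358; 0.12 when slide row was a block) with all knockouts above all controls, while Slc26a11 was at 0.07 ± 0.07 and Slc26a10 at 0.17 ± 0.17. Pendrin therefore had the lowest value of the SLC26 genes tested, and Slc26a6 the highest.

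Of 11 sodium/proton exchanger and adaptor genes tested, 0 passed over all genes and 3 were lower at an unadjusted p under 0.05, against 6.13% of all genes. In 5 of the 11 the knockout and control arrays did not overlap, against 19.5% of all genes. The 3 were Slc9a8 at -0.16 ± 0.05, Slc9a2 at -0.21 ± 0.07 and Slc9a3r2, an adaptor that binds NHE3, at -0.21 ± 0.07, with adjusted p from 0.271 to 0.315. The other NHE3 adaptor gene Slc9a3r1 was at 0.002 ± 0.06. Of the 11 other carbonic anhydrase genes tested, 0 passed and 2 had an unadjusted p under 0.05, against 12.8% of all genes. These were Car9, an enzyme known as a hypoxia target, at 0.33 ± 0.11 (0.066 with slide row as a block), and the mitochondrial Car5b at -0.19 ± 0.07. Car3, which is abundant in adipocytes, was at -0.99 ± 0.41, with 2.49, 1.59 and 3.05 in the knockouts, against 3.84, 2.90 and 3.34 in the controls. Car14 was at -0.13 ± 0.12 and Car15, a luminal carbonic anhydrase, at -0.06 ± 0.14.

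All 21 proton ATPase subunit and accessory genes other than Atp6v1b1 were tested and 0 passed. Of these, 18 were negative, or 85.7%, against 52.9% of all genes tested, with a median of -0.04. Atp6v0d2, Atp6v1g3, Atp6v1c2 and Atp6v0a4 are also among the 22 intercalated cell markers, so the 2 lists are not separate. Atp6v0a2 was at -0.22 ± 0.07 and Atp6v1d, which is on chromosome 12, at -0.14 ± 0.05. The intercalated cell subunit gene Atp6v0a4 was at -0.01 ± 0.10 and the widely expressed Atp6v1b2 at -0.03 ± 0.07. The list's median relative to the control mean was -0.05, -0.03 and -0.06 in the knockouts, against -0.06, -0.04 and 0.11 in controls 1, 2 and 3, so control 3 alone stood apart. In the list for ammonia and acid-base regulation, 0 of 13 passed and 11 were negative. The endothelin receptor gene Ednrb was at 0.30 ± 0.11, the proton-sensing receptor gene Gpr4 at -0.18 ± 0.07 and the ammonia transporter gene Rhbg at -0.22 ± 0.09, with adjusted p from 0.334 to 0.381; Rhbg was at -0.08 with slide row as a block. Slc38a3, the glutamine transporter of ammoniagenesis, was at -0.13 ± 0.12, and Pck1, a gluconeogenic enzyme, at -0.11 ± 0.06.

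**Figure D5:**
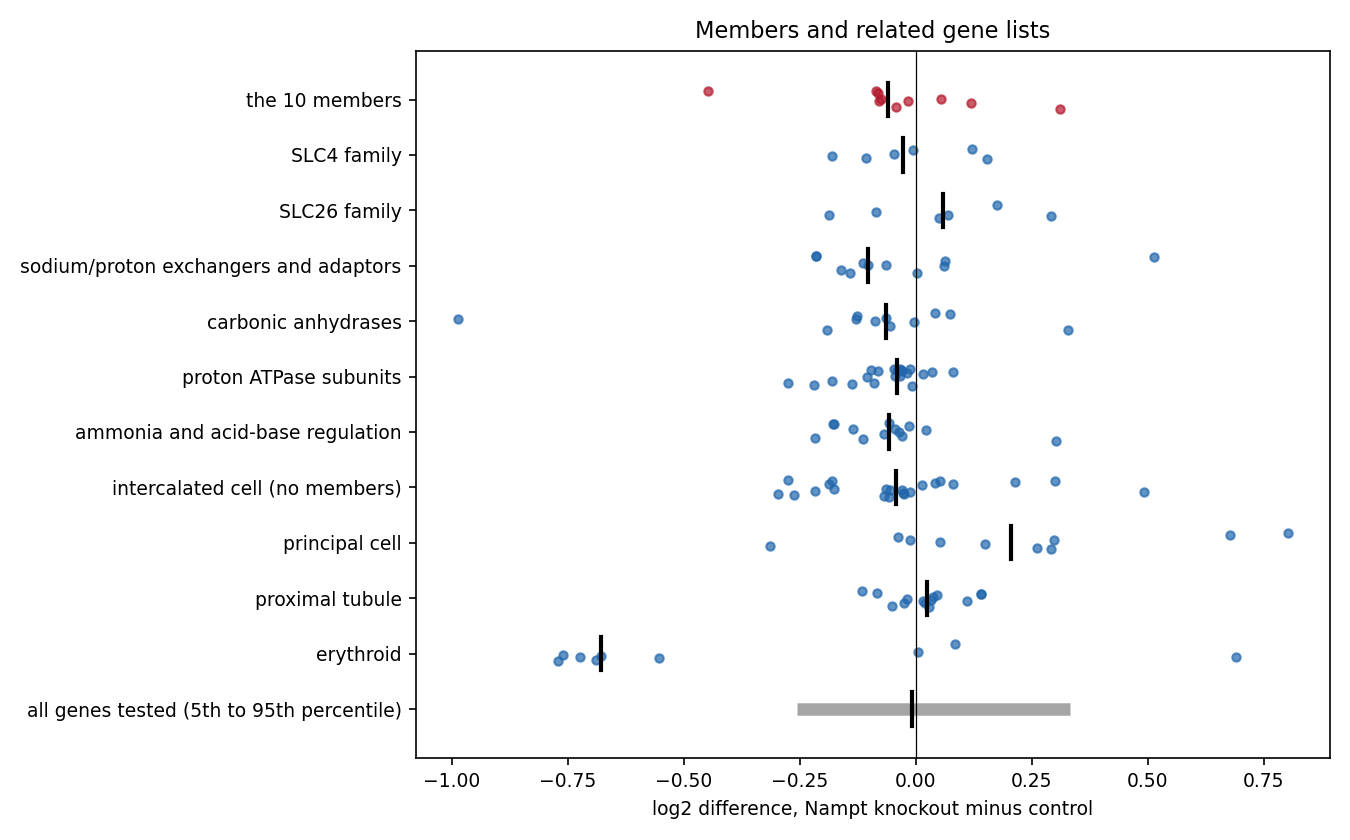
Log2 difference, Nampt knockout minus control, of each tested gene (points) in the 10 members and in related lists, with each list's median (black bar). The grey bar spans the 5th to 95th percentile of all genes tested, from -0.26 to 0.33; Slc26a4 lies outside it and Foxi1 inside.

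Other cell types of the kidney were read from their own markers. Proximal tubule markers, 14 tested, had a median of 0.02 with 0 passing, and the endocytic receptor gene Lrp2 was at 0.02 ± 0.07. The 10 principal cell markers had a median of 0.21 with 0 passing; Aqp2, the water channel of these neighbours of the intercalated cells, was at 0.30 ± 0.28 with 4.37, 4.53 and 5.16 in the knockouts, against 4.12, 4.86 and 4.19 in the controls, and blocking on slide row gave -0.019. The summed principal cell signal was 93.7 to 133 in the knockouts and 80.8 to 112 in the controls, so the groups overlapped. The 8 markers of the thick ascending limb and distal convoluted tubule had a median of -0.12 with 0 passing. Of these, 7 were negative, or 87.5%, against 52.9% of all genes tested. They ran from -0.46 to 0.02, and the groups did not overlap in 1 of the 8, against 19.5% of all genes.

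Most macrophage and injury markers tested had all knockouts above all controls, an order found in 9.04% of all genes tested. Of 7 macrophage markers, 5 had this order and an unadjusted p under 0.05 (6.69% of all genes in that direction), with a median difference of 0.28 and a summed signal of 58.0 to 62.3 in the knockouts and 43.8 to 51.2 in the controls. Of 5 tubular injury markers, 3 had it and 5 had an unadjusted p under 0.05, with a median difference of 1.12 and a summed signal of 4.37 to 7.84 in the knockouts and 2.30 to 3.48 in the controls. None of these 12 genes passed over all genes. Adipocyte markers, 5 tested with Car3 among them, had a median difference of -0.99 and 0 passing. All 5 were negative, against 52.9% of all genes tested. Their summed signal was 3.89 to 14.1 in the knockouts and 10.5 to 20.9 in the controls, so the groups overlapped. The part of these cells in the Foxi1 and Slc26a4 differences was not tested.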

How the data were processed

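Cy3-labelled kidney RNA of 3 Nampt conditional knockout and 3 control mice was measured on 6 arrays of 1 slide. Per the file headers, the authors' processed intensity came from Agilent Feature Extraction 10.7.1.1, is linear, with background subtracted and spatial trends removed inside each array; arrays were not yet scaled to each other. Other columns used were spot flags (0 or 1), as deposited. The authors' deposited value table holds a ratio of that signal to a constant of each array; no source used here states how it was made.

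Spots with an outlier flag (92 to 151 on an array) were dropped, log2 signals of a probe's spots were averaged, and the 75th percentile of all 55681 probes was taken off array by array. Between 57.3% and 63.3% of spots were well above background and 0 were saturated. A probe was tested if every array of either group had it well above background. Accessions were matched without versions to RefSeq's GRCm38.p6 table, which named 28026 probes; the array files name mm9, so the table served only for names and gene order. The probe of highest mean stood for each gene. Knockout was compared with control across 15307 genes by limma 3.58.1 (lmFit, eBayes) in R 4.3.3 with Benjamini-Hochberg adjustment, two-sided, with Python 3.11.15, pandas 2.3.3, scipy 1.17.1 and matplotlib 3.10.9 for tables, exact permutation tests and plots. The fit was checked on simulated data with independent noise and planted changes larger than those of Foxi1 and Slc26a4, so the check does not cover differences of their size. Each replicate is an animal as the labels number them, and their number limits the precision.

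The genes and lists were chosen with earlier results of these data known. Named genes are the 10, Nampt, the 3 genes of smallest p in each related list and a set fixed by name; the genes near Slc26a4 and Nampt, and P2ry14, were named after their values were seen. The labels do not say that replicate numbers pair the animals, so the main fit has no block. Deviations from the group means correlated from -0.10 to 0.10 over 3 same-numbered pairs. That cannot show whether animals were paired, since the pairs are few and deviations cancel within each group. Normexp was run on median spot signals. Alternatives are given in the closing section.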

Additional observations from a re-analysis of the deposited data

How the results depend on the processing

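The count of 0 members called did not change under any alternative. Values with slide row as a block rest on knockout 1 alone against the controls, since the second row held only knockouts. Over all genes, 26 were called, against 11 with quantile normalisation, 77 with no filter on dim probes, 57 with a trended and robust variance, 89 with array weights, 16 with slide row as a block, 4 without the chromosome of Nampt (chosen after seeing the data) and from 0 to 57 when 1 array was left out (0 without control 2 or control 3, 1 without knockout 2 or knockout 3, 34 without control 1, 57 without knockout 1). With the replicate number as a block 0 were called, with 1636 at an unadjusted p under 0.05 by limma, and 0 members, Slc26a4 being at adjusted p = 0.330 and Foxi1 at 0.360. Of 188 member values under alternatives, 173 kept their sign and side of the threshold and 15 turned in sign, none of them for Slc26a4 or Foxi1. Because the groups of Slc26a4 and Foxi1 did not overlap, leaving out 1 array or blocking on slide row could not turn their sign. The filters, the trended and robust variance and the replicate block left every member's main difference as it was. The values that kept their sign are therefore not all separate checks.

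The cause of turned signs was not tested; the main differences were under 0.1 in size except those of Aqp2 (0.30) and Slc9a3 (0.12). With slide row as a block Slc4a9 was at 0.17, Atp6v1b1 at 0.085, Slc4a3 at 0.046, Slc9a3r1 at -0.061, Atp6v0a4 at 0.0097, Rhcg at 0.17, Car15 at 0.047, Tfcp2l1 at 0.096, Aqp2 at -0.019 and Lrp2 at -0.083. With array weights Slc4a1 was at -0.078, Car12 at 0.019, Atp6v1b2 at 0.0089, Car15 at 0.0035 and Aqp6 at -0.070. With quantile normalisation Car12 was at 0.0086, Slc4a2 at 0.0037 and Atp6v0a4 at 0.0074; after normexp as well, Car12 was at 0.014 and Atp6v0a4 at 0.016. With the median of detected probes Slc9a3r1 was at -0.0010, with probes of a gene averaged Slc4a3 at 0.0018, and by its other probe Slc9a3 at -0.078.

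Leaving out 1 array gave ranges from -0.090 to 0.17 for Slc4a1, -0.15 to 0.035 for Slc4a9, -0.16 to 0.0082 for Car2 and -0.065 to 0.037 for Car12. It also gave -0.056 to 0.027 for Slc4a2, -0.032 to 0.034 for Slc9a3r1, -0.10 to 0.082 for Atp6v0a4 and -0.069 to 0.030 for Atp6v1b2. For Rhcg the range was -0.13 to 0.027, for Car15 -0.18 to 0.081, for Aqp6 -0.061 to 0.17, for Tfcp2l1 -0.086 to 0.016 and for Lrp2 -0.024 to 0.070. Among other named genes, slide row as a block moved Hbb-b1 to -0.27, Rhbg to -0.076, Atp6v0d2 to -0.068, Car9 to 0.066 and Slc26a6 to 0.12.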

Other observations

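The genes whose log2 signals over the 6 arrays were most like those of Foxi1, by Pearson's r among all genes tested, were Ovol1 (0.998), Accs (0.997), Rab4b (0.996), Slc2a5 (0.996) and Ttf2 (0.995). These are descriptions over 6 arrays of 2 groups, picked as the highest of 15307, and the arrays share scaling and slide. The epithelial transcription factor gene Ovol1 differed by 0.27 and the fructose transporter gene Slc2a5 by 0.32 (log2, knockout minus control), with adjusted p of 0.234 and 0.236. None of the 5 is on chromosome 12.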
